A study of Mus musculus with 28 samples.

Results

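Compact myelin protein genes were followed along the development of the mouse peripheral nerve. The genes are Mbp, Pmp22, Pmp2 and Mal, 4 of 41605 genes in the table of read counts. They were chosen by name, as proteins of the compact part of the myelin sheath, with earlier results of these libraries known. No measured value enters the rule. All 4 passed the filter on low counts, which kept 17700 genes. Other proteins of compact myelin were not members, and 20 further myelin protein genes are described below as a list.

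The nerves came from wild-type C57BL/6J mice at 7 stages, with 4 libraries per stage and 28 in all. Embryonic day (E) 13 libraries held various peripheral nerves distal to the dorsal root ganglia, pooled from embryos and not stripped, and their tissue label reads sciatic nerve like that of every other stage. The names E13 and E17 are those of the labels, in whole days, for stages that the methods of the study place slightly later. E17 libraries held sciatic nerves pooled from embryos, and the libraries of postnatal days (P) 1, 5, 14, 24 and 60 each held the sciatic nerves of 1 mouse. These sciatic nerves had their outer sheaths stripped before RNA extraction, though some sheath may remain, and each stage had 2 libraries from males and 2 from females, which the labels do not tell apart. No stage carried a transgene or a treatment, and the stages were chosen to differ in age. Because E13 differs from the later stages in nerve and in dissection as well as in age, these cannot be told apart in any comparison with E13.

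Schwann cells, the glia of peripheral nerve, wrap large axons in many turns of membrane and then squeeze out most of the cytoplasm, which leaves compact myelin. Tight packing needs proteins that hold the membrane faces together and a membrane rich in cholesterol and galactolipids. Mbp (myelin basic protein) binds the cytoplasmic membrane faces, Pmp22 (peripheral myelin protein 22) spans the membrane, and a change in its gene dosage causes inherited neuropathy in people. Pmp2 (peripheral myelin protein 2, a fatty acid-binding protein) lies in the cytoplasmic apposition, and Mal is a small membrane protein of lipid rafts that also has a role in sorting membrane cargo.

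In the GENCODE M21 annotation (GRCm38), Pmp22 (ENSMUSG00000018217) lay on the plus strand of chromosome 11 from 63128982 to 63159547 and had 5 transcripts. Pmp2 (ENSMUSG00000052468) lay on the minus strand of chromosome 3 from 10179851 to 10183929 with a single transcript. Mal (ENSMUSG00000027375) lay on the minus strand of chromosome 2 from 127633226 to 127656695 and had 2 transcripts. Counts were given per gene and not per transcript, so neither the splice forms of Mbp nor the alternative first exons of Pmp22 were resolved. The gene model Gm37389 shares 1224 exon bases with Pmp2 on the same strand. It was credited with 633444 reads over all libraries against 656191 for Pmp2, or 95.4 to 96.9% of the Pmp2 count in each postnatal library, so reads in the shared exon bases appear to have been counted for both. Pmp2 and Gm37389 could therefore not be separated in these counts.

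The sequence before the start sites is shown for Pmp22 and Mal, because both genes were called higher at every adjacent step up to P14 and because Pmp22 is transcribed from more than 1 start. Sequences are from RefSeq (GRCm38.p6), whose promoter windows run from 250 bases before to 50 after a start, and the 250 bases before the start are printed. Entries matched for 2 of the 4 genes, Pmp22 with 4 windows and Mal with 1. Windows were searched on both strands for GTGGGNG (an EGR motif), ACAAAG and ACAATG (SOX motifs), GGAATG (a TEAD motif) and TATAAA. Capitals mark the matches. No 2 of these motifs can match at the same bases in the same orientation. The Pmp22 window at the most upstream start covered chr11:63128732-63128981 on the plus strand, the next Pmp22 window chr11:63131207-63131456 on the plus strand, and the Mal window chr2:127656696-127656945 on the minus strand.
Pmp22 upstream start: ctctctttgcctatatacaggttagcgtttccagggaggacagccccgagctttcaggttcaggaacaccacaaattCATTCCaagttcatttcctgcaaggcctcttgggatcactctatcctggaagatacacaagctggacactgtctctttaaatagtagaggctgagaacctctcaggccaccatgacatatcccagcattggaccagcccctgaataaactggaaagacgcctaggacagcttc
Pmp22 next start: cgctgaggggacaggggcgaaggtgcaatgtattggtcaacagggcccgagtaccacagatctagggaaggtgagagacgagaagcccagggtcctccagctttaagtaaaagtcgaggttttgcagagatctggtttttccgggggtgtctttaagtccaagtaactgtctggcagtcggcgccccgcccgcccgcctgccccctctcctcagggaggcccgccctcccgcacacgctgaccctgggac
Mal: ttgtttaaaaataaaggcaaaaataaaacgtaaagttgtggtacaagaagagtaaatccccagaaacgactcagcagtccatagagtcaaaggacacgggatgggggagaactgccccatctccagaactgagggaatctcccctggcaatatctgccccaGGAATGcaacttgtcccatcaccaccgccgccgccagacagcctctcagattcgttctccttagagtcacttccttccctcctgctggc

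The TEAD motif was the only match. It began at -173 from the upstream Pmp22 start, on the minus strand of the gene, and at -89 from the Mal start, on the plus strand of the gene. GGAATG was present in 14.7% of 32851 windows, so that a match in any window was not rare. GTGGGNG was held by 31.6%, ACAAAG by 18.7%, ACAATG by 12.6% and TATAAA by 13.6% of windows, and their letters were not in the windows of Pmp22 and Mal. The 250 bases before the upstream Pmp22 start had a GC content of 48.8% and 3 CpG dinucleotides. The 250 bases before the next start had 61.2% and 14 CpG, and those before Mal had 7 CpG. Because the counts are per gene, they do not say which Pmp22 start was in use at any stage.

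Levels are given as CPM (counts scaled to a common library size), with library sizes scaled by TMM, a method that centres the changes of most genes on 0. Total counts ran from 13899895 to 37662780 per library. In E13 replicates 1 and 4 and in P1 replicate 1, deviations from the stage mean followed the GC content of genes (slopes of -0.93, 0.72 and -0.42 on the log2 scale per 10 GC points, against -0.16 to 0.2 in the other libraries). P24 replicate 2 stood apart in marker sums. Its 6 Schwann lineage markers summed to 4699 CPM against 3539 to 3907 in the other P24 libraries, and its 6 fibroblast markers to 7118 CPM against 12965 to 14822. Its 4 adipocyte markers summed to 1.36 CPM against 39.8 to 77.2, so the changes of the 4 genes and of the ratios described at P24 are also given without it. Other values at P24 include it.

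In the same annotation, Mbp (ENSMUSG00000041607) lay on the plus strand of chromosome 18 from 82475146 to 82585637 and had 16 transcripts. Mbp read 42.5, 65.7, 67.5 and 95.1 CPM in the E13 libraries and 1032, 1096, 1209 and 1133 CPM in the E17 libraries. It read 4420, 8611, 7409 and 10583 CPM at P1 and 27488, 26368, 30643 and 25292 CPM at P5. The values were 43959, 51398, 57223 and 53257 CPM at P14, 44129, 47423, 42238 and 36850 CPM at P24, and 24093, 33075, 26983 and 29115 CPM at P60. No library of one stage overlapped those of the next up to P14, whereas P14 and P24 overlapped, and P60 overlapped P5. The lowest Mbp value at E13 was in replicate 1, the highest in replicate 4, and the lowest at P1 in replicate 1, which are the 3 libraries with GC trends. Mbp itself had a GC content of 51.0%. With the GC trend removed, the log2 change of Mbp was 4.07 ± 0.19 (SE) from E13 to E17 and 2.79 ± 0.18 from E17 to P1. The trend was taken from deviations from the stage mean, so its removal could hardly move a difference between stages. That these values lie close to those given below therefore says little about GC content. A GC trend shared by a whole stage was not tested.

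Pmp22 read 86.5, 116, 101 and 128 CPM at E13, and 857, 911, 937 and 943 CPM at E17. It read 6342, 8757, 6501 and 9161 CPM at P1, and 27033, 26614, 26810 and 27441 CPM at P5. It read 47900, 52573, 55245 and 51961 CPM at P14, 53268, 65632, 51567 and 48281 CPM at P24, and 34737, 41554, 33195 and 34557 CPM at P60. The P5 libraries were the most alike, with a mean of 26974 ± 355 CPM (SD, n = 4). P14 and P24 overlapped, and every P60 library lay between P5 and P14.

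Pmp2 read 1.16, 0.767, 1.26 and 1.26 CPM at E13, which was 19 to 35 reads per library, and 6.87, 6.39, 5.82 and 11.0 CPM at E17. It read 741, 750, 553 and 674 CPM at P1, and 1544, 1590, 1766 and 1867 CPM at P5. It read 2096, 2337, 2052 and 1928 CPM at P14, 2192, 2929, 2273 and 2141 CPM at P24, and 449, 553, 326 and 409 CPM at P60. The highest P60 library and the lowest P1 library were nearly level (553 CPM each to 3 digits), and the other P60 libraries lay below every P1 library, which was seen for no other member.

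Mal read 45.6, 50.2, 35.6 and 45.1 CPM at E13, and 1120, 1138, 1131 and 1188 CPM at E17. It read 2123, 1955, 1675 and 1863 CPM at P1, and 3814, 3585, 3626 and 4387 CPM at P5. It read 6703, 6698, 7130 and 6419 CPM at P14, 5362, 6961, 5443 and 5419 CPM at P24, and 3576, 4055, 3436 and 3350 CPM at P60. Mal was already well above its E13 level at E17, where its libraries were close together, and its P60 libraries overlapped those of P5.

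**Figure D1:**
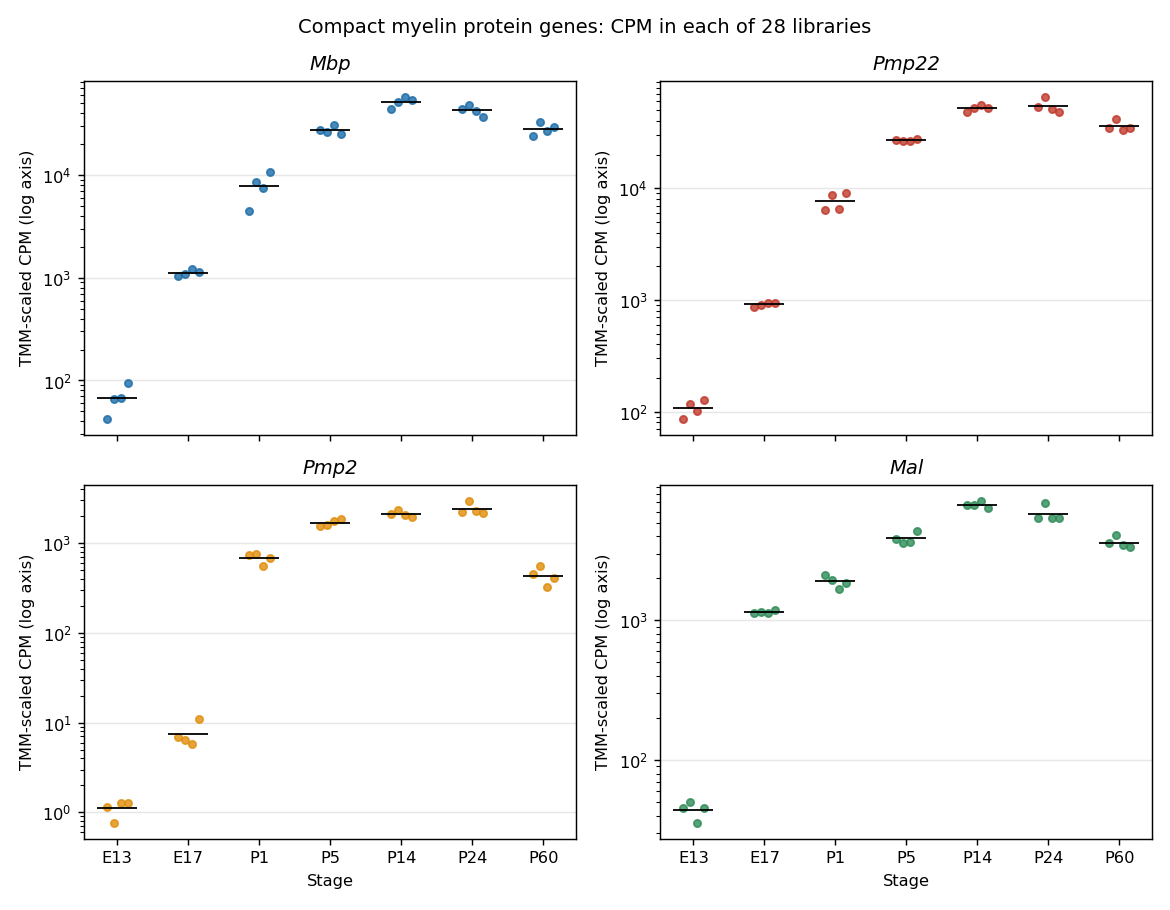
TMM-scaled CPM (log axis) of each gene in each of the 28 libraries by stage, with points for libraries and a black bar for the stage mean of 4 libraries. Mbp ran from 67.7 CPM at E13 to 51459 CPM at P14 as stage means, and Pmp2 from 1.11 CPM at E13 to 2384 CPM at P24 before its lower P60 points.

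A gene was called at an adjusted p (Benjamini-Hochberg over all 17700 genes) under 0.05 in edgeR's quasi-likelihood test. For any change over the 7 stages, all 4 genes were called (adjusted p from 2.3e-24 to 1.1e-20 in edgeR's quasi-likelihood test), as were 88.8% of all genes tested, so being called at all was not particular to them. In bulk tissue, fewer cells of a type and less RNA per cell cannot be told apart, and this holds for each comparison below.

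From E13 to E17, all 4 genes rose, against 28.1% of all genes tested that were called higher. Mbp rose 16.5-fold (log2 4.04 ± 0.22, adjusted p = 1.9e-14, edgeR) and Pmp22 8.45-fold (3.08 ± 0.14, adjusted p = 4.3e-16, edgeR). Pmp2 rose by 2.74 ± 0.21 on the log2 scale (adjusted p = 1.4e-11, edgeR). Mal rose the most, by 4.70 ± 0.13 (adjusted p = 1.5e-20, edgeR). No E13 library overlapped an E17 library for any of the 4, and every E17 library was above every E13 library for 21.8% of all genes tested. Schwann lineage markers also changed at this step: their summed level was 525 ± 152 CPM at E13 and 2550 ± 83.8 CPM at E17, and 5 of 6 were called higher. The 6 neuron cell body markers summed to 220 ± 65.3 CPM at E13 and 4.78 ± 1.17 CPM at E17, the 6 fibroblast markers to 1899 ± 474 and 16863 ± 922 CPM, and the 5 skeletal muscle markers to 12.6 to 258 and 5.12 to 22.1 CPM. All 5 macrophage markers (sums of 368 ± 46.5 and 105 ± 5.76 CPM) and all 4 erythroid markers (408 to 3792 and 244 to 682 CPM) were called lower, and 4 of 5 endothelial markers were called higher and 1 lower (183 ± 22.7 and 310 ± 24.7 CPM). The part of these cells in the rise of the 4 genes was not tested. All 4 genes were also called without E13 replicate 1, where Mbp rose by 3.86 ± 0.21 on the log2 scale, and without E13 replicate 4, where it rose by 4.25 ± 0.22.

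Around birth, from E17 to P1, the 4 genes rose again but by very different amounts, against 15.1% of all genes called higher. Pmp2 rose 90.9-fold, from 7.52 ± 2.36 to 679 ± 90.6 CPM (log2 6.51 ± 0.21, adjusted p = 9.5e-19, edgeR). Pmp22 rose 8.43-fold (3.08 ± 0.14, adjusted p = 1.2e-15, edgeR) and Mbp 6.94-fold (2.80 ± 0.21, adjusted p = 4.8e-11, edgeR). Mal rose least, by 0.73 ± 0.11 on the log2 scale (adjusted p = 1.0e-05, edgeR). The order of Mal and Pmp2 at this step was the opposite of that from E13 to E17. Schwann lineage markers summed to 2550 ± 83.8 CPM at E17 and 3596 ± 139 CPM at P1. Sox10, a transcription factor of the whole lineage, was at 326 and 354 CPM and was not called (log2 0.12 ± 0.28, adjusted p = 0.797, edgeR). The E17 libraries pooled embryos and the P1 libraries did not, and this cannot be told apart from age. Of other cell types, 4 of 5 endothelial and all 4 erythroid markers were called lower (sums of 310 ± 24.7 and 174 ± 9.73 CPM, and of 398 ± 194 and 86.8 ± 36.9 CPM). All 4 tested skeletal muscle markers (12.3 ± 7.92 and 1.61 ± 0.674 CPM) and 2 of 6 neuron cell body markers (4.78 ± 1.17 and 2.33 ± 1.19 CPM) were also called lower, and 1 macrophage and 1 epithelial marker higher. The part of these cells in the rise was not tested. Without P1 replicate 1, all 4 were called and Mbp rose by 2.98 ± 0.19.

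From P1 to P5, all 4 genes rose, against 10.3% of all genes called higher. Mbp rose by 1.82 ± 0.20 on the log2 scale (adjusted p = 2.1e-07, edgeR) and Pmp22 by 1.81 ± 0.14 (adjusted p = 1.4e-10, edgeR). Pmp2 rose by 1.32 ± 0.17 (adjusted p = 2.0e-06, edgeR) and Mal by 1.02 ± 0.11 (adjusted p = 1.6e-07, edgeR). Stages did not overlap for any of the 4, and every P5 library was above every P1 library for 15.8% of all genes tested. Macrophage markers also changed at this step: all 5 were called higher, and they summed to 112 ± 10.7 CPM at P1 and 231 ± 12.8 CPM at P5. Of 4 adipocyte markers, 2 were called higher, with sums of 0.137 ± 0.0758 and 3.20 ± 3.46 CPM. Of 5 endothelial markers, 2 were called higher, with sums of 174 ± 9.73 and 224 ± 13.6 CPM. Schwann lineage markers summed to 3596 ± 139 and 4300 ± 164 CPM. The part of these cells in the rise of the 4 genes was not tested.

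From P5 to P14, 3 of the 4 rose, against 15.4% of all genes called higher. These were Mbp (log2 0.91 ± 0.20, adjusted p = 9.5e-04), Pmp22 (0.94 ± 0.13, adjusted p = 3.3e-06) and Mal (0.81 ± 0.11, adjusted p = 2.9e-06, edgeR). Pmp2 was higher in every P14 library than in any P5 library, but its difference of 0.31 ± 0.17 on the log2 scale was not called (adjusted p = 0.165, edgeR). Every P14 library was above every P5 library for 21.6% of all genes tested. The Pmp2 difference was called when only those stages were fitted (0.33 ± 0.08, adjusted p = 0.00128, edgeR) and by limma-voom (0.34, adjusted p = 0.00739). Of 6 Schwann lineage markers, 3 were called higher and 1 lower at this step, with sums of 4300 ± 164 and 4843 ± 76.6 CPM. Of the other cell types, 3 of 6 fibroblast, 2 of 5 endothelial and 2 of 4 adipocyte markers were called higher, and 3 of 5 macrophage markers were called lower (sums of 231 ± 12.8 and 178 ± 26.8 CPM). The part of these cells in the rise was not tested.

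Between P14 and P24, none of the 4 was called by edgeR, and none had an unadjusted p under 0.05 (0.0613 to 0.572). Over all genes tested, 2.72% were called higher and 2.72% lower at this step. Limma-voom called 1, Mal, as lower at P24 (log2 -0.27, adjusted p = 0.00565), against 9.60% of all genes that it called lower. The edgeR differences on the log2 scale were -0.27 ± 0.20 for Mbp, 0.07 ± 0.13 for Pmp22, 0.18 ± 0.17 for Pmp2 and -0.22 ± 0.11 for Mal. P24 replicate 2 was the highest P24 library for each of the 4 genes. Without it, these differences were -0.33 ± 0.22, -0.03 ± 0.14, 0.06 ± 0.17 and -0.32 ± 0.11, so that Pmp22 changed sign, and none was called.

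From P24 to P60, all 4 genes fell, against 9.23% of all genes called lower. Pmp2 fell from 2384 ± 368 to 434 ± 94.4 CPM, or by 2.46 ± 0.18 on the log2 scale (adjusted p = 1.4e-10, edgeR). The log2 changes of the others were -0.69 ± 0.11 for Mal (adjusted p = 6.1e-05, edgeR), -0.60 ± 0.13 for Pmp22 (adjusted p = 0.00168, edgeR) and -0.59 ± 0.20 for Mbp (adjusted p = 0.0414, edgeR). No P24 library overlapped a P60 library for any of the 4, and every P60 library was below every P24 library for 14.6% of all genes tested. The call of Mbp was lost in 6 fits that each left out a library (P24 replicate 1, 2 or 3, or P60 replicate 1, 3 or 4), where its log2 change was -0.52 to -0.61 (adjusted p from 0.0731 to 0.123, edgeR), and with library sizes not scaled by TMM (log2 -0.47, adjusted p = 0.0788). Without P24 replicate 2, the log2 changes were -2.34 ± 0.18 for Pmp2, -0.59 ± 0.11 for Mal and -0.50 ± 0.13 for Pmp22, and these 3 were still called, while Mbp stood at -0.54 ± 0.21 (adjusted p = 0.106, edgeR). Of 6 fibroblast markers, 2 were called lower and 1 higher at this step. They summed to 12256 ± 3509 CPM at P24 and 5862 ± 912 CPM at P60. Col3a1 went from 6871 to 1157 CPM and Col1a1 from 2594 to 934 CPM, while Dcn went from 2141 to 3244 CPM. None of the 4 adipocyte markers was called (sums of 40.6 ± 31.0 and 101 ± 44.1 CPM). The P24 value of that sum includes P24 replicate 2, at 1.36 CPM. Of 4 erythroid markers, 3 were called lower (sums of 104 ± 38.2 and 25.8 ± 8.67 CPM). Schwann lineage markers summed to 3936 ± 534 and 4283 ± 207 CPM, and Sox10 was at 390 and 449 CPM (log2 0.20 ± 0.28, adjusted p = 0.713, edgeR). The part of other cells in the falls was not tested.

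**Figure D2:**
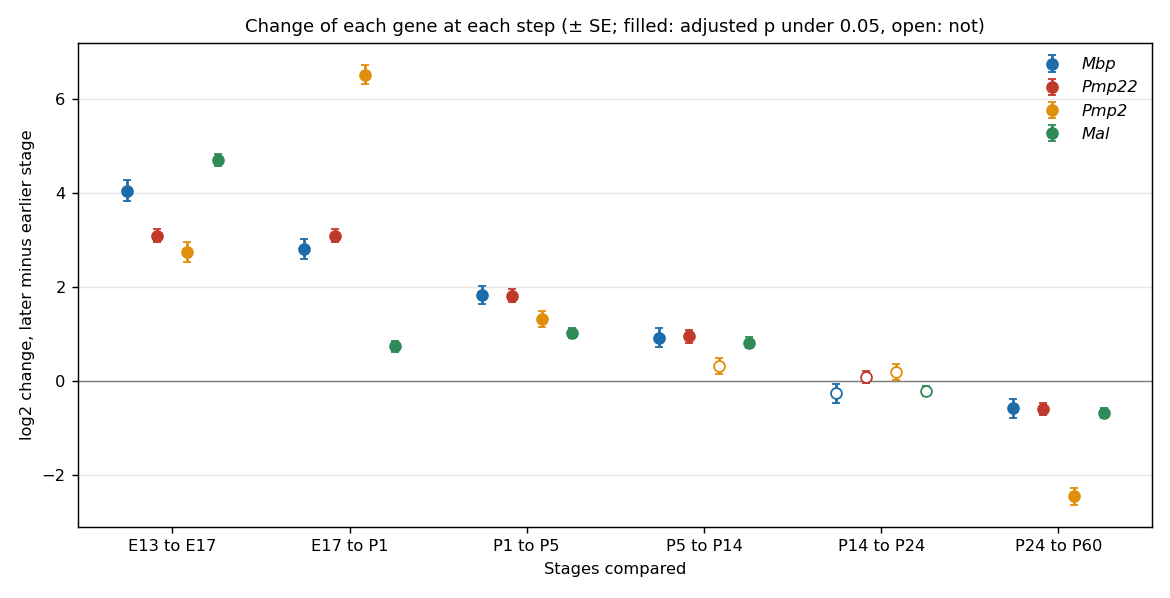
Change of each gene from each stage to the next on the log2 scale (later minus earlier, ± SE from the edgeR fit of 28 libraries), with filled points for an adjusted p under 0.05 and open points otherwise. Pmp2 stood at 6.51 from E17 to P1 and at -2.46 from P24 to P60, and all 4 points from P14 to P24 were open.

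Over longer spans, all 4 genes were higher at P14 than at E17, against 29.5% of all genes called higher. Pmp2 rose by 8.14 ± 0.23 on the log2 scale (adjusted p = 9.2e-21), Pmp22 by 5.83 ± 0.16 (adjusted p = 6.4e-21), Mbp by 5.53 ± 0.24 (adjusted p = 7.8e-17) and Mal by 2.56 ± 0.12 (adjusted p = 2.4e-16, edgeR). From P14 to P60, all 4 fell, against 15.7% of all genes called lower. The log2 changes were -2.28 ± 0.17 for Pmp2 (adjusted p = 9.5e-11), -0.90 ± 0.11 for Mal (4.7e-07), -0.86 ± 0.20 for Mbp (0.00144) and -0.53 ± 0.13 for Pmp22 (0.00280, edgeR). From P1 to P60, 3 of the 4 rose, against 30.9% of all genes called higher, and Pmp2 was called lower, against 30.2% called lower. Pmp22 was 2.23 ± 0.14 higher at P60 (adjusted p = 1.0e-13), Mbp 1.87 ± 0.20 (9.6e-09) and Mal 0.92 ± 0.11 (6.3e-08), whereas Pmp2 fell by 0.65 ± 0.17 on the log2 scale (0.00158, edgeR). These spans share libraries with the steps above and are not further evidence for them.

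Ordered by mean CPM, Mbp was highest at P14, followed by P24, P60, P5, P1, E17 and E13. Its neighbours P14 and P24 (adjusted p = 0.586, edgeR) and P60 and P5 (0.874) were not called as different. Pmp22 followed the order P24, P14, P60, P5, P1, E17 and E13, where only P24 and P14 were not called (0.893, edgeR), and P60 was 0.42 ± 0.13 above P5 on the log2 scale (adjusted p = 0.00922). Pmp2 followed P24, P14, P5, P1, P60, E17 and E13, with P24 and P14 (0.702) and P14 and P5 (0.165, edgeR) not called. Mal followed P14, P24, P5, P60, P1, E17 and E13, with P14 and P24 (0.341) and P5 and P60 (0.494, edgeR) not called. A p that missed the threshold does not show that these stages were alike.

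Each gene can also be read against its own highest stage. At E17, Mal already stood at 1144 CPM against 6738 CPM at P14, whereas the level at E17 was 2.17% of the highest stage for Mbp, 1.67% for Pmp22 and 0.315% for Pmp2. At P1 the values were 28.3% for Mal, 28.5% for Pmp2, 15.1% for Mbp and 14.1% for Pmp22. At P5, Pmp2 was at 71.0% while the others were at 49.3 to 57.2%. At P60, Pmp2 was at 18.2%, Mal at 53.5%, Mbp at 55.0% and Pmp22 at 65.8%.

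**Figure D3:**
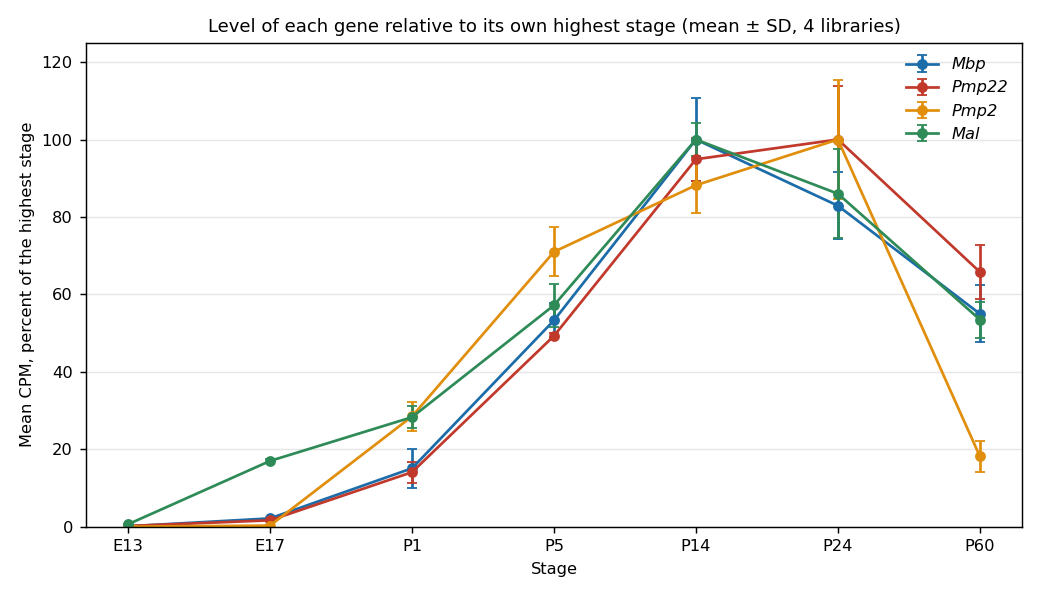
Mean CPM of each gene by stage as a percent of its own highest stage, with bars for the SD over 4 libraries. At E17, Mal stood above the other genes, which were at 0.315 to 2.17%, and Pmp2 was at 18.2% at P60 while the others were at 53.5 to 65.8%.

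Together the 4 genes held 0.0301 ± 0.00469% of all counts at E13 and 0.366 ± 0.0104% in the E17 libraries, then 1.91 ± 0.370% (P1) and 5.53 ± 0.197% (P5). The share was 9.18 ± 0.604% (P14), 8.99 ± 0.765% (P24) and 6.32 ± 0.516% (P60, SD, n = 4 each). As levels per length (CPM per kilobase of merged exons), Pmp22 stood at 22056 at P14, Mbp at 6076, Mal at 2425 and Pmp2 at 1494. At E17 the levels per length were 412 for Mal, 387 for Pmp22, 132 for Mbp and 5.34 for Pmp2, and at P60 they were 15298 for Pmp22, 3344 for Mbp, 1297 for Mal and 308 for Pmp2. The length used matters for Mbp, which has many transcripts: per kilobase of its longest coding transcript it stood at 10727 at P14, and Pmp22 at 28496. At E17 it also turned the order of Pmp22 and Mal, which stood at 500 and 412 per kilobase of the longest coding transcript.

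To ask whether members changed by different amounts, the log2 ratio of their CPM (with 0.5 CPM added to each) was compared within libraries, where library scaling largely cancels. Exact permutation tests of 4 against 4 libraries (two-sided) were made for 6 pairs of genes and 7 steps, the adjacent ones and P14 to P60. Of these 42 tests, 29 reached the smallest p that the design allows (exact p = 0.029, adjusted p = 0.041 over the 42 tests). That p arises only where the stages do not overlap, so the lack of overlap in these 29 is the same fact. How often other pairs of genes would reach it was not tested. The 6 ratios share genes and are not independent of each other. Values of p below are from these exact tests.

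For Mbp and Pmp22, the mean log2 ratio was -0.71 ± 0.26 (SD, n = 4) in E13 libraries and 0.29 ± 0.05 in E17 libraries. It came to -0.04 ± 0.34 (P1), 0.02 ± 0.13 (P5) and -0.02 ± 0.08 (P14), and then to -0.35 ± 0.09 (P24) and -0.35 ± 0.12 (P60). The ratio rose by 1.00 ± 0.13 (SE) from E13 to E17 and fell by 0.34 ± 0.06 from P14 to P24 (adjusted exact p = 0.041 for each), and the latter change was -0.30 without P24 replicate 2. It also fell by 0.33 ± 0.17 from E17 to P1 (adjusted exact p = 0.041), but by 0.17 without P1 replicate 1, where the ratio was lowest. From P5 to P14 (-0.04 ± 0.08, adjusted exact p = 0.74) and from P24 to P60 (0.00 ± 0.08, adjusted exact p = 0.97, and -0.03 without P24 replicate 2) no change passed the test.

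Mal changed by other amounts than Pmp22 up to P5. The log2 ratio of Pmp22 to Mal fell by 1.60 ± 0.14 from E13 to E17, then rose by 2.33 ± 0.16 from E17 to P1 and by 0.81 ± 0.17 from P1 to P5 (adjusted exact p = 0.041 for each). It rose by 0.29 ± 0.05 from P14 to P24 (adjusted exact p = 0.041), and by 0.29 without P24 replicate 2. The ratio of Mbp to Mal changed by -0.60 ± 0.27 from E13 to E17, where the stages overlapped and the test was not passed (adjusted exact p = 0.14). It rose by 2.00 ± 0.32 from E17 to P1 and by 0.87 ± 0.33 from P1 to P5 (adjusted exact p = 0.041 for each), and by 0.57 from P1 to P5 without P1 replicate 1. From P5 on, the mean log2 ratio of Mbp to Mal was 2.83 ± 0.23 (P5), 2.93 ± 0.15 (P14), 2.88 ± 0.14 (P24) and 2.97 ± 0.16 (P60, SD), and none of its steps passed the test (adjusted exact p from 0.53 to 0.81). Without P24 replicate 2, it changed by -0.01 between P14 and P24, and by 0.05 between P24 and P60.

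Pmp2 was set against each of the others. Its log2 ratio to Mal fell by 2.41 ± 0.27 from E13 to E17 and rose by 5.71 ± 0.18 from E17 to P1, and it then fell by 1.79 ± 0.11 from P24 to P60 (adjusted exact p = 0.041 for each). From P24 to P60, the log2 ratio of Pmp22 to Pmp2 rose by 1.87 ± 0.10 and that of Mbp to Pmp2 by 1.87 ± 0.15 (adjusted exact p = 0.041 for each). Without P24 replicate 2, these changes from P24 to P60 were -1.78 for Pmp2 to Mal, 1.86 for Pmp22 to Pmp2 and 1.82 for Mbp to Pmp2. The ratio of Pmp22 to Pmp2 from E13 to E17 did not pass (0.80 ± 0.26, adjusted exact p = 0.077), but it passed with 2 CPM added to each value (1.48, adjusted exact p = 0.040). Pmp2 was at 1.11 CPM at E13, so the added value weighs on that step.

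**Figure D4:**
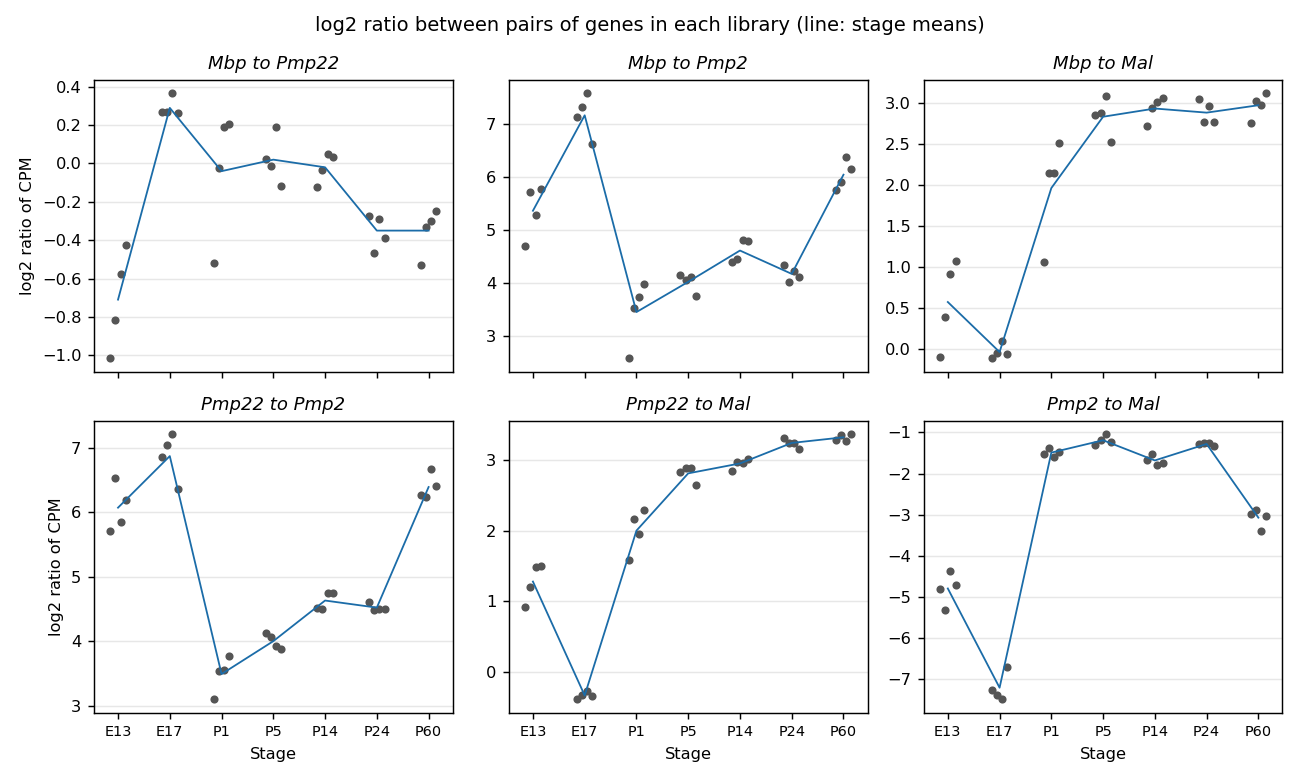
log2 ratio of CPM between each pair of genes in each of the 28 libraries by stage, with points for libraries and a line through the stage means; the vertical scales differ between panels. The ratio of Mbp to Pmp22 lay between -0.35 and 0.29 as a stage mean from E17 on, and the ratio of Pmp2 to Mal went from -7.20 at E17 to -1.49 at P1 and from -1.28 at P24 to -3.07 at P60.

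Read against Sox10, which was not called at any adjacent step after E17, the ratio of Mbp counts to Sox10 counts was 3.43 ± 0.0936 (E17), 110 ± 3.48 (P14), 110 ± 10.1 (P24) and 63.8 ± 6.91 (P60). For Pmp2 the same ratio was 0.0230 ± 0.00649 (E17), 4.56 ± 0.820 (P14), 6.19 ± 1.08 (P24) and 0.995 ± 0.292 (P60). Mal stood at 3.52 ± 0.221, 14.6 ± 1.97, 15.1 ± 2.61 and 8.24 ± 1.76 counts per Sox10 count at the same stages, and Pmp22 at 2.80 ± 0.101, 112 ± 9.52, 142 ± 20.3 and 82.1 ± 16.1. These are ratios of counts, and they compare stages within a gene and not genes with each other.

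Mbp is also a major protein of central myelin, so oligodendrocyte markers were examined. The 6 markers summed to at most 32.4 CPM in any library. Mog, Opalin and Olig2 were at or near 0 after E13 (means of at most 0.244 CPM), as was Olig1 (at most 0.0225 CPM), and Hapln2 had means of at most 2.70 CPM. Mobp, a myelin protein gene that is also in that list, carried most of the sum from P5 on, with 0.0331 CPM at E17, 29.9 CPM at P14 and 8.70 CPM at P60. Mal was named for T cells, and the 5 T cell markers summed to at most 9.10 CPM in any library and to at most 1.23 CPM in any postnatal library. Among the 5 epithelial markers, Krt5 and Krt14 had means of at most 0.0157 CPM and Krt8 of at most 0.0141 CPM after birth, while Cdh1, which Schwann cells also make, was at 317 CPM at P14. Endothelial markers summed to 174 to 378 CPM as stage means from E17 on, macrophage markers to 105 to 231 CPM and erythroid markers to 25.8 to 398 CPM.

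The other genes of the myelin programme were described from lists, by how many genes were called in the fit of all genes. Over all genes tested, 29.5% were called higher and 27.0% lower from E17 to P14, 14.2% higher and 15.7% lower from P14 to P60, and 6.84% higher and 9.23% lower from P24 to P60. Of 20 other myelin protein genes, 18 were called higher and 1 lower from E17 to P14 (median log2 change 2.24, against 0.00 over all genes tested). The largest changes were of Ncmap, a non-compact myelin protein (10.85 ± 0.28, adjusted p = 1.1e-21), Gjb1, a gap junction protein (9.40 ± 0.29, 6.1e-20) and Pllp (plasmolipin, 6.21 ± 0.15, 2.8e-22, edgeR). Tspan2, a tetraspanin, was the gene called lower (-0.79, named for this after its value was seen). From P14 to P60, 8 of the 20 were called lower and 2 higher (median -0.29 against -0.02), and from P24 to P60 3 were called lower and 1 higher. Whether this list and the 4 compact myelin genes differed at these steps was not tested.

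Of 22 cholesterol synthesis genes, 13 were called higher from E13 to E17, 14 from E17 to P1, 20 from P1 to P5 and 11 from P5 to P14, and none was called lower at these steps (all genes, 28.1, 15.1, 10.3 and 15.4% called higher). All 22 were called higher from E17 to P14 (median log2 change 2.32 against 0.00 over all genes), with Lss at 3.42 ± 0.12 (adjusted p = 1.2e-18) and Hmgcs1 at 3.23 ± 0.22 (7.2e-13, edgeR). Lss makes lanosterol, and Hmgcs1 an early intermediate of the pathway. From P24 to P60, 18 were called lower, against 9.23% of all genes (median -1.10 against -0.01). Lss was at 582 CPM at P24 and 203 CPM at P60, and Hmgcs1 at 4065 and 1665 CPM.

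Of 20 genes of galactolipid and fatty acid synthesis, most of them enzymes, 18 were called higher and 1 lower from E17 to P14 (median 1.55 against 0.00). Fa2h, which hydroxylates the fatty acids of myelin galactolipids, rose by 6.74 ± 0.22 on the log2 scale (adjusted p = 1.1e-19), Ugt8a, which makes galactosylceramide, by 4.57 ± 0.22 (4.3e-16) and Elovl7, a fatty acid elongase, by 4.41 ± 0.21 (3.5e-16, edgeR). From P24 to P60, 9 were called lower (median -0.44 against -0.01). Ugt8a fell by 1.21 ± 0.19 at that step (adjusted p = 3.4e-05, edgeR). Fa2h was at 874 CPM at P24 and 812 CPM at P60.

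The list of 17 promyelinating factors holds genes tied to the entry of Schwann cells into myelination, and it also holds Myrf. Of these 17, 15 were called higher from E13 to E17, against 28.1% of all genes, and 5 higher and 3 lower from E17 to P1. From E17 to P14, 3 were called higher and 8 lower, against 29.5 and 27.0% of all genes (median -0.31 against 0.00). Egr2, the transcription factor that drives myelin genes, rose by 4.24 ± 0.19 on the log2 scale from E13 to E17 (adjusted p = 2.8e-16) and by 3.32 ± 0.17 from E17 to P1 (6.5e-15, edgeR). Its mean was 1.43 CPM at E13 and 27.0 CPM at E17. From birth it was 270 CPM (P1), 290 CPM (P5), 181 CPM (P14), 165 CPM (P24) and 229 CPM (P60). Egr2 thus fell by 0.68 ± 0.15 from P5 to P14 (adjusted p = 0.00112, edgeR), a step at which Mbp, Pmp22 and Mal rose. It rose by 0.47 ± 0.15 from P24 to P60 (adjusted p = 0.0328, edgeR), a step at which all 4 genes fell. Nab1, a co-regulator of Egr2, rose by 2.17 ± 0.22 from E17 to P14 (adjusted p = 3.4e-09), and Myrf, a central myelin regulator, fell by 2.40 ± 0.26 from 10.1 to 1.90 CPM (7.5e-09, edgeR).

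All 9 inhibitors of myelination were called lower from E17 to P14, against 27.0% of all genes (median -1.20 against 0.00 over all genes). The log2 changes were -4.01 ± 0.18 for Ednrb, an endothelin receptor (adjusted p = 1.9e-16), -2.28 ± 0.13 for Id2, an inhibitor of differentiation (1.6e-14), and -1.20 ± 0.18 for Sox2, a factor of immature Schwann cells (1.5e-06, edgeR). From P24 to P60, 2 of the 9 were called lower and 1 higher. Ednrb was at 40.5 CPM at P24 and 12.3 CPM at P60.

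**Figure D5:**
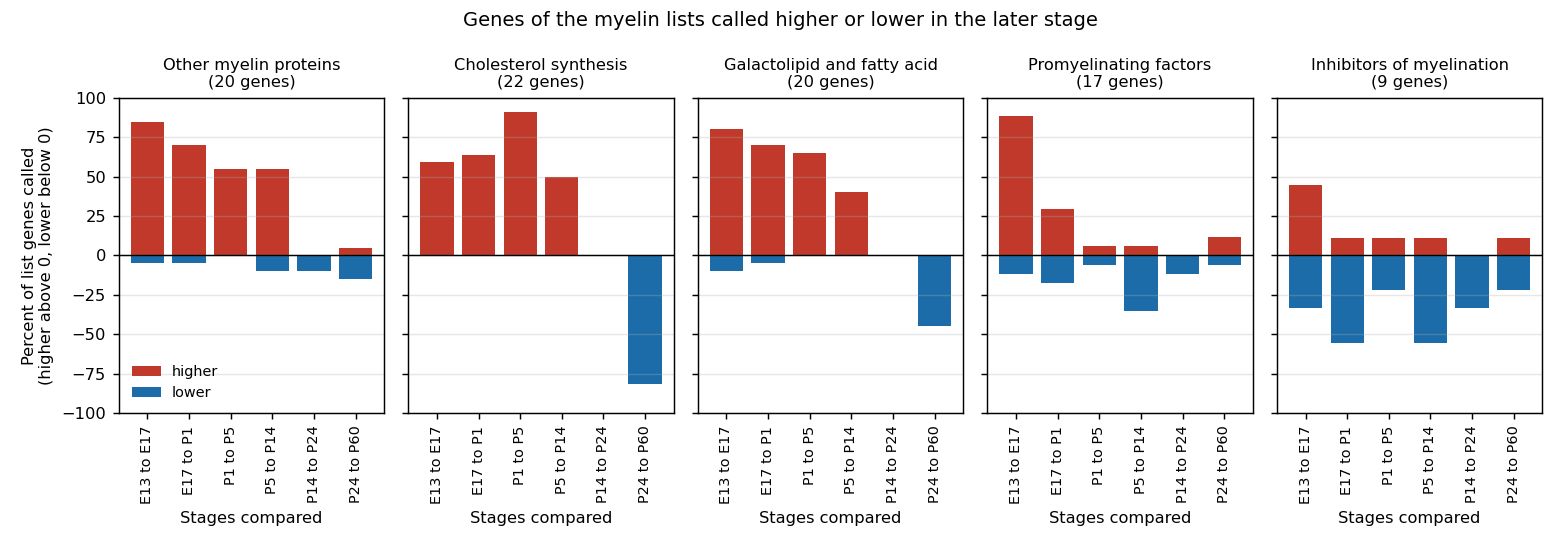
Percent of the genes of 5 lists called higher (red, above 0) or lower (blue, below 0) in the later stage of each adjacent pair, at an adjusted p under 0.05. Of 22 cholesterol synthesis genes, 20 were called higher from P1 to P5 and 18 lower from P24 to P60.

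Relatives of the members by protein family were called in both directions from E17 to P14, when 29.5% of all genes were called higher and 27.0% lower, and with so few relatives nothing is read from these counts. Of 5 tested relatives of Pmp22 (6 in the list), 2 were called higher and 2 lower from E17 to P14: Emp2 rose by 2.22 ± 0.11 on the log2 scale (adjusted p = 1.1e-15), while Emp1 (-1.49 ± 0.16, 9.9e-09) and Emp3 (-0.78 ± 0.20, 0.00173, edgeR) fell. Of 10 relatives of Mal (proteins with the MARVEL membrane domain), 5 were called higher and 3 lower. Among these, Pllp is also in the list of other myelin proteins, and Cmtm6 rose by 2.20 ± 0.11 (adjusted p = 2.9e-15) and Cmtm5 by 1.08 ± 0.19 (2.7e-05, edgeR). Of 12 relatives of Pmp2 (fatty acid- and retinoid-binding proteins), 7 were tested, with 1 called higher and 4 lower from E17 to P14. The log2 changes were -3.11 ± 0.31 for Crabp1 (adjusted p = 2.3e-09) and -1.10 ± 0.39 for Crabp2 (0.0198, edgeR). Fabp7, a fatty acid-binding protein of early glia named after its values were seen, was at 293 CPM at E13 and 6.76 CPM at E17, a step at which it fell by 5.44 ± 0.33 on the log2 scale (adjusted p = 1.1e-13, edgeR) and Pmp2 rose.

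Among 11460 genes with at least 10 CPM in a stage, those with the most similar course were found by Pearson r of log2 CPM over the 28 libraries. The points share stages, so r mostly reflects the timeline and is given with no p. For Mbp these were Gpr37l1 (r = 0.997), Elovl1 (0.994), Cd9 (0.993), Pla2g16 (0.991) and Prx (0.991). For Pmp22 they included Gpr37l1 (0.994), Magix (0.994), Cd9 (0.993) and Mob3b (0.992). For Pmp2 they were Acaca (0.991), Ostf1 (0.990), Map4 (0.989), Mgll (0.988) and Lurap1 (0.986), of which Acaca makes the substrate of fatty acid synthesis and Mgll splits monoglycerides. For Mal they were Emp2 (0.993), Gatm (0.986), Parva (0.986), Kmt5a (0.986) and Aplp2 (0.986). With Spearman rho, 2 of the 5 genes named for Mbp stayed among its 5 most similar, and 0 of 5 for the others. Between the members, r was 0.995 for Mbp and Pmp22 and 0.905 for Pmp2 and Mal, the highest and the lowest of the 6 pairs.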

How the data were processed

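RNA was extracted from frozen, ground nerves and made into stranded poly-A libraries, which were sequenced as single-end reads. The authors trimmed the reads, aligned them with STAR (2.6.1c per the submitters' processing notes) and deposited raw read counts per gene made with featureCounts. The notes give the build as GRCm38.p5, whereas the methods print the name of a human build, and the settings for strand, for reads that match several places and for reads in overlapping genes are not given in the sources used here. Of 41605 genes, 41519 were found in GENCODE M21.

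The filter on low counts was edgeR's filterByExpr, with the stage as group. All 28 libraries entered a single quasi-likelihood fit (edgeR 4.0.16, R 4.3.3, TMM scaling, robust estimation, stage as the only term, common dispersion 0.0439), and p-values were adjusted by Benjamini-Hochberg over 17700 genes in each comparison. A call needed an adjusted p under 0.05 and no minimum fold change, since falls of abundant genes can be small. The standard error of a log2 change is its size over the square root of F. CPM are means ± SD over 4 libraries. The test was tested on simulated data for E17 to P1 over 15127 genes, where 89 of 100 changes of log2 size 1 and 100 of 100 of log2 size 2 were recovered with 8 false calls. The simulation held libraries of these stages only, gave every gene the same dispersion and changed only genes above a minimum level. Its rates therefore need not hold for the fit of 28 libraries. Counting error was small beside the spread between animals except for Pmp2 at E13. No 2 libraries were identical, and over 42 replicate pairs a chi-square test of the counts gave 5.21 to 293 per degree of freedom.

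Members and gene lists were chosen with earlier results of these data known. From each list, the 3 genes with the largest change from E17 to P14 among those called with at least 10 CPM were named, and for each member the 5 genes most alike in course. The values of some genes that this rule names are not reported here. Promoter entries for Mbp and Pmp2 were not used here. Alternatives were DESeq2 size factors and Wald test (1.42.0), library size only, other filters, limma-voom (limma 3.58.1), only the stages compared, a replicate block, removal of a GC trend, a minimum fold of 2, and each library left out in turn. Sex was not used.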

Additional observations from a re-analysis of the deposited data

Results flagged for a closer look

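P24 replicate 2 lay far above the other libraries of its stage for 2 genes. Pmp2 read 2929 CPM there against 2141 to 2273 CPM in the other P24 libraries, and Mal read 6961 CPM against 5362 to 5443 CPM. Dixon's test at its 95% critical value for 4 samples was run on 28 groups, 4 genes at 7 stages, and chance alone picks out about 1 group in 20. The same library had the highest Schwann lineage marker sum of its stage (4699 CPM against 3539 to 3907 CPM) and the lowest fibroblast marker sum (7118 CPM against 12965 to 14822 CPM), and the part of these in its values was not tested.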

How the results depend on the processing

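Of 680 alternative values for the 36 log2 changes of the members, 657 kept their direction and their side of the threshold, 19 lost a call, 3 gained one and 1 reversed. None of the 585 values for the 31 called changes reversed. With a minimum fold of 2, members called fell to 3 from E17 to P1 (Mal was lost), 0 from P5 to P14, 1 from P24 to P60, 1 from P14 to P60 and 2 from P1 to P60, since most changes there were smaller than 2-fold. The share of all genes called with that minimum was not counted, so nothing about the members is read from these counts. Limma-voom called 1 member from P14 to P24 (Mal) where edgeR called 0. Pmp22 from P14 to P24, 0.07 on the log2 scale with all libraries, ranged from -0.03 without P24 replicate 2 (adjusted p = 0.978, edgeR) to 0.13 without P24 replicate 4. The log2 ratio of Pmp22 to Pmp2 from E13 to E17 was 1.48 with 2 CPM added against 0.80 with 0.5 CPM. The Mbp call from P24 to P60 was lost in 6 fits that left out a library (adjusted p from 0.0731 to 0.123). Deviations of same-numbered libraries correlated weakly (24 correlations from -0.0593 to 0.292, 8 over 0.1), and 10 of 24 were higher than those with any other number. Since not every correlation was over 0.1, the numbers were not taken to pair samples, and the replicate block left every count of members called as it was (4, 4, 4, 3, 0, 4 in the adjacent steps in order and 4, 4, 4 in the longer spans). The design of 4 against 4 libraries cannot give an exact p below 0.029, and ratios with a library left out were computed as values with no test. Depth limits Pmp2 at E13, with 19 to 35 reads per library.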

Other observations

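Some genes of the lists took a course unlike that of the 4 members, and they are named here after their values were seen. Perp, a relative of Pmp22, was at 0.328 ± 0.238 CPM at P5, 6.03 ± 2.43 CPM at P14 and 26.9 ± 15.7 CPM at P60 (SD, n = 4). It rose by 4.22 ± 0.64 (SE) on the log2 scale from P5 to P14 (adjusted p = 1.1e-05, edgeR), and from P24 to P60 it changed by 0.17 ± 0.47 (adjusted p = 0.878). Ocln, a tight junction protein with the membrane domain of Mal, rose by 3.48 ± 0.49 from P5 to P14 (adjusted p = 3.1e-06, edgeR) and was at 8.07 ± 3.12 CPM at P60. Fxyd3 rose by 0.76 ± 0.18 from P24 to P60 (adjusted p = 0.00398, edgeR), a step at which the 4 members fell.

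Gjc3, a gap junction protein of glia, fell before the members did. It was at 1757 ± 137 CPM at P5, 1030 ± 59.9 CPM at P14 and 291 ± 15.6 CPM at P60, and it fell by 0.77 ± 0.15 on the log2 scale from P5 to P14 (adjusted p = 3.5e-04, edgeR), when Mbp, Pmp22 and Mal rose. Tm7sf2, a reductase of cholesterol synthesis, showed a fall from P24 to P60 of 2.15 ± 0.13 (adjusted p = 1.1e-11, edgeR), near the size of the fall of Pmp2.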
